A study of Rattus norvegicus with 5 samples.

Results

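The 10 receptor genes described here encode 5 receptors for lysophosphatidic acid (LPA; Lpar1, Lpar2, Lpar3, Lpar4 and Lpar6) and 5 for sphingosine 1-phosphate (S1P; S1pr1 to S1pr5). They were chosen by symbol and are 10 of 33014 genes in the deposited gene table. RNA came from wild-type (WT) Sprague Dawley rats of postnatal day 10, from dorsal root ganglia, the clusters of sensory neurons and glia beside the spinal cord. The ganglia of pups, 10 per litter, were dissociated and plated at 5000 cells per well, and the samples may share 1 litter. PBS (phosphate-buffered saline) was added to every culture on the day after plating, lysis followed 8 days of culture, and each of the 5 samples pooled 3 wells. The samples form 1 group with replicates 1 to 5, so the comparisons are between genes within a library and between libraries. Nothing in the labels places the samples in separate preparations, so the p-values measure spread that may be technical.

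LPA and S1P are small phospholipids that signal outside the cell through G protein-coupled receptors. LPA is formed mainly outside cells by autotaxin, while S1P is made inside cells by sphingosine kinases and then exported. The receptors act through inhibitory G proteins, through the Gq class and through the class encoded by Gna12 and Gna13, which reshapes the cytoskeleton. In mouse peripheral nerve, LPA receptor signalling is known for its part in Schwann cell biology and in pain after nerve injury, and S1P is known to excite sensory neurons.

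Libraries held between 21596608 and 27913098 estimated reads. Levels are TPM, a measure per transcript length that sums to 1000000 in each library, so levels of different genes can be set side by side. All 5 neuronal, all 4 satellite glia, all 5 fibroblast and all 5 macrophage marker genes on the lists used here reached 1 TPM in every library, led by Prph, Apoe, Col1a2 and C1qa. Of 5 mural cell markers 3 were detected, and the list summed to between 173 and 341 TPM, led by Tagln and Acta2 at 150 ± 33.2 and 110 ± 33.0 TPM. Rgs5 and Kcnj8 were not detected, at 0.530 ± 0.620 and 0.517 ± 0.179 TPM, and whether mural cells were present was not tested. Every library mixes the RNA of several cell types, so the expressing cell of a receptor is not resolved. Fewer cells of a type cannot be told apart from less RNA per cell.

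Of the 10 receptor genes, 7 were detected, meaning at least 1 TPM in every library, while 41.3% of all genes in the table were. S1pr3 and Lpar1 were the highest, at 93.7 ± 12.6 and 61.9 ± 3.30 TPM (SD, n = 5). S1pr2 and Lpar3 followed at 23.8 ± 1.45 and 22.5 ± 1.72 TPM. Lpar4, Lpar6 and S1pr1 lay at 3.18 ± 0.244, 2.45 ± 0.535 and 2.18 ± 0.364 TPM. S1pr5, Lpar2 and S1pr4 stayed below 1 TPM in all 5 libraries. The median over the 10 genes was 2.82 TPM, beside 0.297 TPM over all genes of the table and 20.5 TPM over detected genes.

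**Figure D1:**
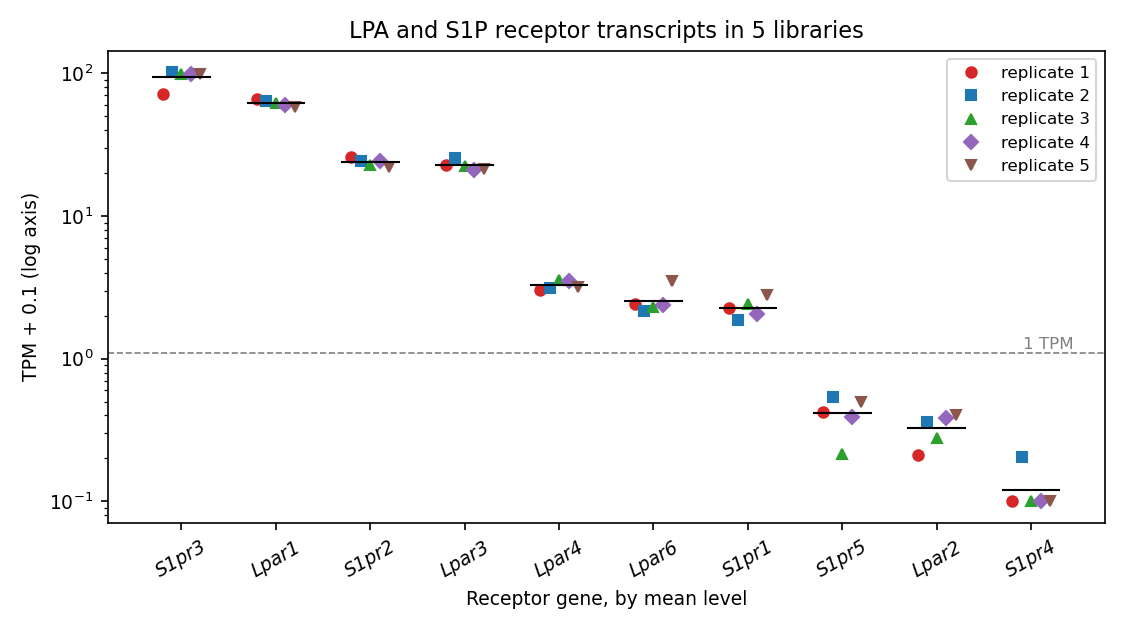
Level of each receptor gene in each library, as TPM + 0.1 on a log axis, with genes ordered by mean (black bar) and 1 symbol per replicate; the dashed line marks 1 TPM. S1pr3 and Lpar1 lie highest, 7 genes lie above the line in every library, and the 5 S1pr4 values are the lowest set.

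S1pr3 encodes an S1P receptor that couples to all 3 of these G protein classes and is known in mouse from pain-sensing neurons. It was at 71.4, 101.8, 98.7, 98.7 and 98.1 TPM in replicates 1 to 5. The replicate 1 library was thus the low one, and the other 4 lay within 98.1 to 101.8 TPM. S1pr3 held 44.4% ± 4.29 of the summed TPM of the 10 genes and 77.8% ± 3.44 of the S1P receptor sum. It ranked 1853 among all genes, above 86.4% of detected genes.

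S1pr2 encodes a receptor that acts mostly through the class encoded by Gna12 and Gna13. It was at 25.7, 24.2, 22.7, 24.2 and 22.0 TPM and held 20.04% ± 3.27 of the S1P receptor sum. S1pr1, the lymphocyte and endothelial receptor that couples to inhibitory G proteins, was at 2.15, 1.77, 2.32, 1.95 and 2.71 TPM, or 1.83% ± 0.365 of that sum. Its 5 values lay well under those of S1pr2, with no overlap. Endothelial marker genes were detected for 3 of 6 genes and summed to between 24.6 and 27.6 TPM, led by Cdh5 at 18.6 ± 1.05 TPM. Pecam1, Kdr and Cldn5 were not detected, at 0.680 ± 0.146, 0.288 ± 0.160 and 0.0967 ± 0.0695 TPM, with Cldn5 listed at 0 in 1 library. The part of endothelial cells in the S1pr1 level was not tested.

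S1pr5 and S1pr4 were at the bottom of the S1P receptors. S1pr5, known from oligodendrocytes and natural killer cells, was at 0.320, 0.442, 0.115, 0.293 and 0.401 TPM. None of 4 oligodendrocyte markers was detected, and their sum lay between 1.36 and 2.57 TPM, with Mobp the highest at 0.903 ± 0.324 TPM. S1pr4, a receptor of white blood cells, had 3 reads in replicate 2 (0.104 TPM) and 0 reads in the other 4 libraries. A count of 0 allows up to 3 reads, which is 0.0968, 0.103, 0.0859 and 0.112 TPM in replicates 1, 3, 4 and 5. Over the 5 libraries, the exact 95% Poisson interval of its level was 0.00410 to 0.0581 TPM, for counting error alone. Of 5 lymphocyte markers 1 was detected, Cd8a at 7.93 ± 1.09 TPM, and Cd3e and Cd3d were listed at 0 in every library; macrophage markers summed to between 789 and 1236 TPM. The part of these cells in the S1pr4 and S1pr5 levels was not tested.

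Among LPA receptors, those of the endothelial differentiation gene (EDG) family, Lpar1 to Lpar3, held most of the transcripts. Their sum was 84.6 ± 4.52 TPM, beside 5.63 ± 0.538 TPM for Lpar4 and Lpar6, which are closer in sequence to the P2Y nucleotide receptors. Lpar1, a receptor of Schwann cells and other glia that is tied to nerve injury pain in mouse, was at 66.2, 63.6, 61.9, 59.8 and 57.7 TPM. It held 68.5% ± 1.22 of the LPA receptor sum. Lpar3, known in mouse from non-peptidergic pain neurons, was at 22.8, 25.3, 22.4, 20.8 and 21.4 TPM and held 24.9% ± 1.12. Of 5 marker genes of that neuron class 4 were detected, led by P2rx3 at 264 ± 8.23 TPM, and their sum lay between 515 and 561 TPM, while Mrgprd was at 0.0627 ± 0.0950 TPM. Whether Lpar3 came from those neurons was not tested.

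Lpar2, the remaining EDG-family LPA receptor gene, was at 0.112, 0.261, 0.179, 0.283 and 0.300 TPM and reached 1 TPM in none of the libraries. Lpar4 was at 2.92, 3.03, 3.47, 3.42 and 3.09 TPM. Lpar6, whose loss in humans causes a hair growth disorder, was at 2.31, 2.07, 2.19, 2.28 and 3.39 TPM, with replicate 5 the high one. In the RefSeq annotation of rat, Lpar6 overlaps the span of Rb1, the retinoblastoma gene, which was at 19.1 ± 0.769 TPM. The strand setting of the quantification is not given in the sources used here, so the Lpar6 level is uncertain. No other receptor gene of the 10 overlapped an annotated gene.

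Neighbours in the order of level were set against each other within each library as log2((TPM + 0.1) ratio), with the exact two-sided sign-flip permutation test over 5 libraries. With 32 sign patterns the smallest exact p is 0.063, so no pair could pass 0.05. S1pr3 exceeded Lpar1 in 5 of 5 libraries, by 1.5-fold on average (log2 0.59 ± 0.27; exact p = 0.063). The log2 ratio was 0.11 in replicate 1 and between 0.67 and 0.76 in the others, and its mean without replicate 1 was 0.71. The lowest S1pr3 value, 71.4 TPM, still lay above the highest Lpar1 value, 66.2 TPM. Lpar1 exceeded S1pr2 by 2.60-fold (log2 1.38 ± 0.05; exact p = 0.063), and again the values did not overlap.

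S1pr2 and Lpar3 overlapped, and their ratio was within the spread (log2 0.08 ± 0.11; exact p = 0.25; S1pr2 higher in 4 of 5 libraries). Lpar3 then lay 6.89-fold above Lpar4 (log2 2.78 ± 0.18; exact p = 0.063) with no overlap. Lpar4 over Lpar6 was 0.38 ± 0.31 (exact p = 0.125) and Lpar6 over S1pr1 was 0.15 ± 0.15 (exact p = 0.125), with overlapping values in both pairs. Reads per 1000000 without division by length gave -0.44 for Lpar6 over S1pr1, the opposite sign, a setting in which transcript length enters the ratio. S1pr1 lay above S1pr5 by a log2 ratio of 2.51 ± 0.62 (exact p = 0.063), which was 2.87 with a pseudocount of 0.01 TPM and 1.27 with 1 TPM. S1pr5 and Lpar2 overlapped (0.31 ± 0.52; exact p = 0.3125), and Lpar2 over S1pr4 was 1.46 ± 0.52 (exact p = 0.063), a ratio that the pseudocount limits. Lpar2 over S1pr4 was 0.88 with sums of named transcripts and 1.15 in reads per 1000000, each with an exact p of 0.25. The named transcript of Lpar2 had 0 reads in replicates 1 and 3.

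The S1P receptor genes together held more transcripts than the LPA receptor genes. Their sum was 99.6, 128.3, 123.8, 125.2 and 123.2 TPM in replicates 1 to 5, against 94.4, 94.2, 90.1, 86.6 and 85.9 TPM for the LPA receptors. The S1P sum was higher in 5 of 5 libraries and did not overlap the LPA sum, by a log2 ratio of 0.41 ± 0.19 (exact p = 0.063). The ratio was 0.08 in replicate 1, and its mean without that library was 0.49. The order of the sums rests on S1pr3, which held 77.8% ± 3.44 of the S1P sum, while the next S1P receptor gene, S1pr2, was at 23.8 ± 1.45 TPM.

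Each gene was also set against the typical detected gene of its library, the median of log2(TPM + 0.1) over detected genes, which corresponds to between 20.2 and 20.6 TPM. limma was fitted to 18988 genes with a mean of at least 0.1 TPM, which left out S1pr4. Of the 9 receptor genes fitted, 4 lay higher, beside 34.3% of all genes fitted, and 5 lay lower, beside 62.5%. S1pr3 lay 2.18 ± 0.21 above it on the log2 scale (SD, n = 5; limma adjusted p = 2.26e-06) and Lpar1 1.59 ± 0.07 above (limma adjusted p = 1.86e-07). S1pr2 lay close to it but above in 5 of 5 libraries, by 0.22 ± 0.09 (limma adjusted p = 0.00264). Lpar3 lay above in 5 of 5 libraries by 0.14 ± 0.10, with a limma adjusted p of 0.0228. The Lpar3 call was lost without replicate 1 (0.14; limma adjusted p = 0.0502). The lower genes included Lpar4 at -2.65, Lpar6 at -3.03 and S1pr1 at -3.18, below it in all 5 libraries, with limma adjusted p between 1.02e-07 and 1.70e-06. S1pr5 at -5.70 and Lpar2 at -6.01 were called lower too. Both stayed below 1 TPM in every library and the reference covers detected genes only, so their direction was fixed in advance. Their size depends on the pseudocount, with -6.10 and -6.51 at 0.01 TPM and -4.03 and -4.13 at 1 TPM. The median over the 9 genes was -2.65, beside -1.06 over all genes fitted.

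**Figure D2:**
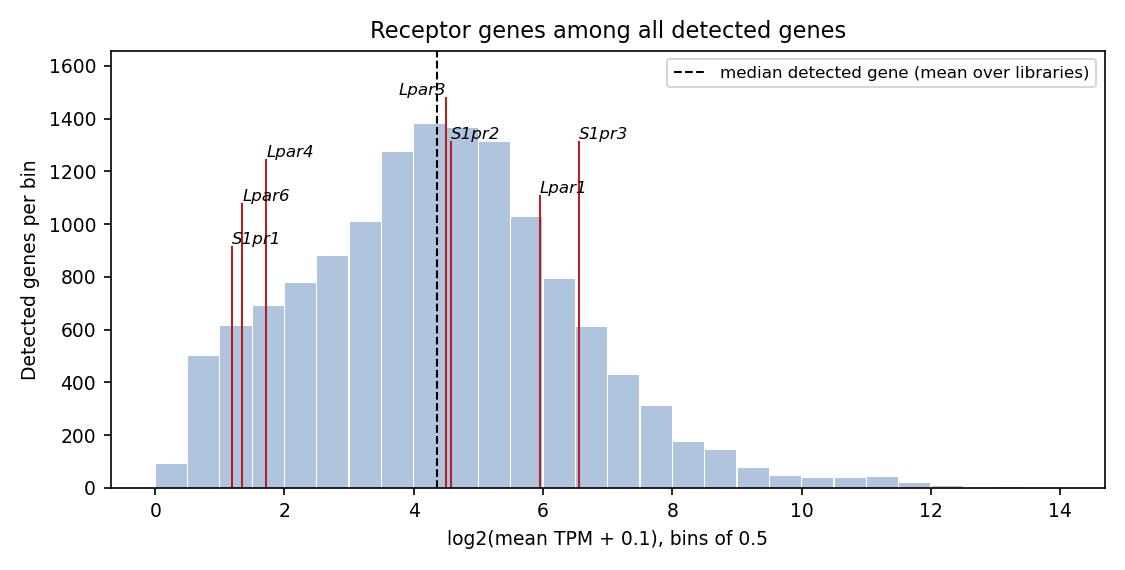
Histogram of log2(mean TPM + 0.1) over the 13635 detected genes, in bins of 0.5, with the 7 detected receptor genes as red lines (line height has no meaning) and the median detected gene dashed. S1pr3 and Lpar1 lie right of the centre, S1pr2 and Lpar3 just above the median, and Lpar4, Lpar6 and S1pr1 on the left slope.

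Estimates of the spread between libraries varied among the receptor genes. edgeR's biological coefficient of variation, its estimate of spread beyond counting error, was 4.88% for Lpar1, 6.39% for Lpar3 and 6.30% for S1pr2, beside a median of 7.89% over 12936 genes. These values and those that follow are drawn towards the trend of all genes. It was 11.4% for Lpar4, 16.8% for S1pr1 and 18.8% for Lpar6, which had 794, 384 and 281 reads in all over named transcripts. For S1pr3 it was 10.8%, and 2.86% without replicate 1. The raw coefficient of variation of S1pr3 was 13.4%, where counting error alone gives 1.47%. For Lpar6 these were 21.8% and 13.3%, and for S1pr1 16.7% and 11.4%. For Lpar4 they were 7.67% and 7.94%, so its raw spread did not exceed counting error and its 11.4% is not a measured excess.

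A single library stood apart for 2 of the 7 detected receptor genes by Dixon's criterion, beside 5.58% of all detected genes. S1pr3 in replicate 1 was at 71.9% of the mean of the other 4 libraries. Both of its named transcripts were lower there, at 62.4 TPM against 84.8 to 90.0 TPM and at 7.52 TPM against 10.2 to 12.6 TPM in the others. Lpar1 and S1pr2 had their highest values in that same library. Lpar6 in replicate 5 was at 153% of the mean of the others, on 70 reads against 46 to 61 reads.

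Few genes were as low in replicate 1 as S1pr3. Of 9425 genes with a mean of at least 10 TPM, S1pr3 and 17 others (0.191% together) were in replicate 1 at 72.8% or less of the lowest other library, a rule set after the values were seen. Since that rule chose the 17 by their low replicate 1 values, these are a description of which genes share them and carry no test. The 17 included Mbp, a myelin protein gene, at 622 TPM in replicate 1 against 873 to 1004 TPM in the others. Mag, which encodes a myelin adhesion protein, was at 12.7 TPM against 19.9 to 23.4 TPM. Prx, which encodes the Schwann cell protein periaxin, was at 56.9 TPM against 81.9 to 90.8 TPM. The 17 were not myelin genes alone, and Apln among them was at 5.80 TPM against 9.47 to 16.4 TPM. Ndufa4l2 was at 13.2 TPM against 20.1 to 31.4 TPM, and Angptl4 at 11.3 TPM against 15.8 to 18.6 TPM. Of the marker lists reported here, the neuronal, satellite glia, macrophage and endothelial sums in replicate 1 lay within the range of the other libraries. On the neuronal list Prph, Tubb3 and Uchl1, the highest genes, lay within the range too. Snap25 was lowest in replicate 1, at 91.2 TPM against 97.6 to 108.3 TPM, and so was Elavl4, at 40.6 TPM against 43.2 to 45.3 TPM. Apoe made up most of the satellite glia sum there, at 7927 of 8359 TPM. On that list Kcnj10 was lowest in replicate 1, at 27.0 TPM against 28.2 to 32.9 TPM, while Fabp7 and Glul lay within the range. The mural cell sum was highest there, at 341 TPM against 173 to 317 TPM, and the oligodendrocyte sum too, at 2.57 TPM against 1.36 to 2.07 TPM. The lowest sums there were those of the non-peptidergic neuron list (515 TPM against 518 to 561 TPM), the fibroblast list (1683 TPM against 1684 to 1727 TPM) and the lymphocyte list (6.89 TPM against 7.09 to 9.18 TPM). The fibroblast genes went both ways, with Col1a1 and Col1a2 lowest in replicate 1 and Col3a1 within the range. Dcn and Pdgfra were highest there, at 365 TPM against 307 to 338 TPM and at 26.4 TPM against 19.4 to 22.1 TPM. The part of the cells of these lists, or of myelinating cells, in the S1pr3 level was not tested.

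**Figure D3:**
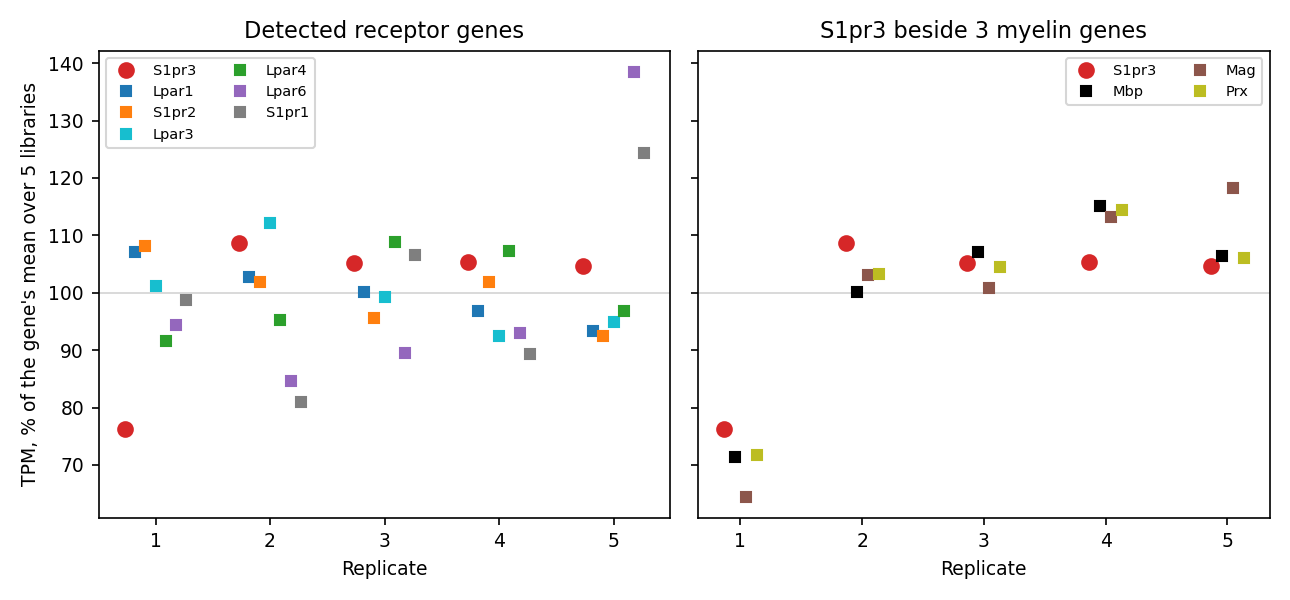
Level in each library as a percentage of the gene's own mean over 5 libraries, for the 7 detected receptor genes (left) and for S1pr3 beside the myelin genes Mbp, Mag and Prx, chosen for their low replicate 1 values (right); points are spread sideways for legibility and replicates have no order. S1pr3 and the 3 myelin genes have their lowest values in replicate 1, and Lpar6 its highest in replicate 5. The other genes as low in replicate 1 are not shown.

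Reads were divided over 25 named transcripts of the 10 genes, and most receptor genes were carried by 1 of them. For Lpar1, with 8 named transcripts, NM_053936.3 held 91.9% ± 2.15 of the named-transcript TPM. For S1pr3, NM_001271143.1 held 88.7% ± 1.12 and XM_006253680.3 the remaining 11.3% ± 1.12. For S1pr1, NM_017301.2 held 94.8% ± 3.99. S1pr2, Lpar2, Lpar4, Lpar6 and S1pr4 had a single named transcript each.

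Lpar3 was the exception among detected genes, with XM_006233469.4 at 75.2% ± 9.03 and NM_023969.2 at 23.1% ± 8.46. The share of NM_023969.2 was highest in replicate 3 at 34.2% and lowest in replicate 5 at 15.5%, although the gene's own level varied little. Both are model-based divisions of shared reads. For the undetected S1pr5, 3 of 4 named transcripts (XM_006242665.4, NM_021775.2 and XM_006242664.4) held the 42 reads of all libraries, with no transcript read in every library. Named transcripts gave 84.9% of the deposited Lpar4 level, 69.5% of S1pr5 and 66.4% of Lpar2, and at least 98.8% of the other 7.

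**Figure D4:**
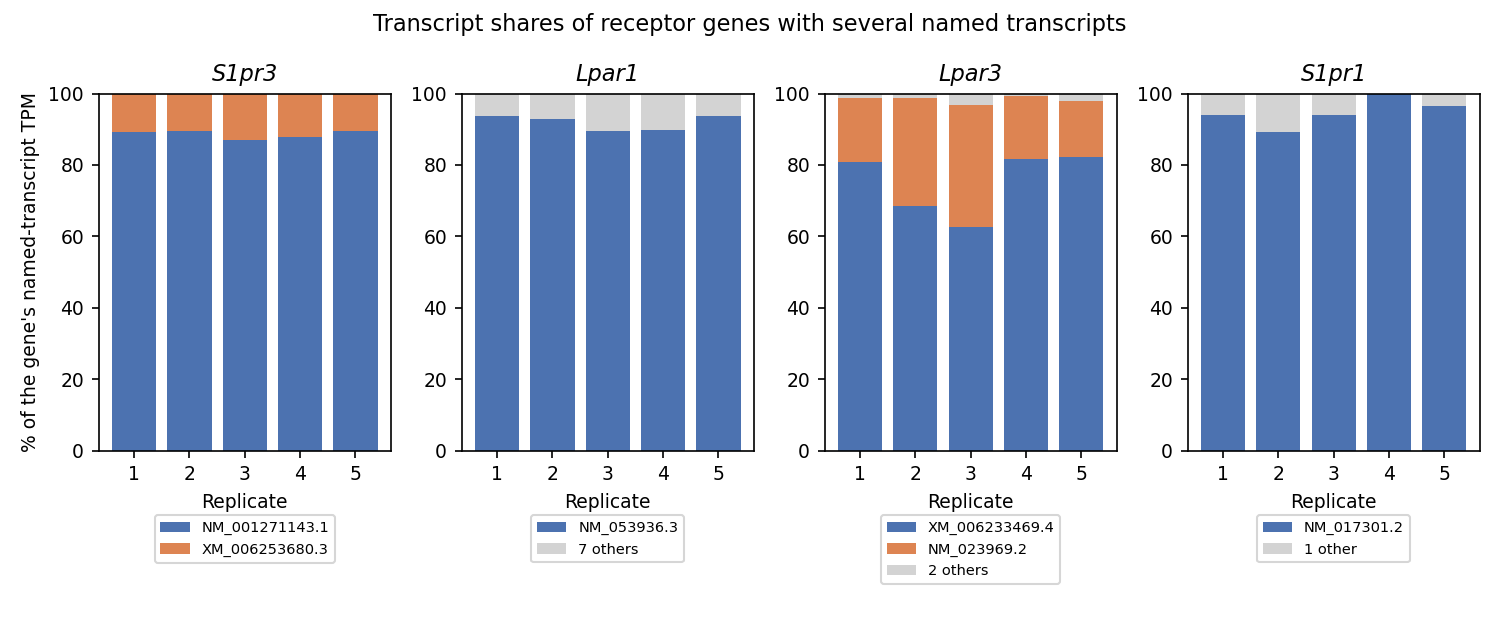
Share of each named transcript in the summed TPM of its gene, per replicate, for the 4 detected receptor genes with several named transcripts; transcripts under 10% on average are grey. A single transcript holds most of S1pr3, Lpar1 and S1pr1, while the division of Lpar3 varies between libraries.

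The promoter windows of the receptor genes differed in their number of CG dinucleotides, a base step that clusters in the promoters of widely expressed genes. RefSeq windows of 300 bases (250 before the annotated start, 50 after, build GRCr8) were listed for 8 of the 10 genes. CG reads the same on both strands, so 1 strand was searched. There were 29 CG in S1pr5, 23 in S1pr1, 21 in S1pr3, 18 in S1pr2, 13 in Lpar3, 7 in Lpar4, 2 in Lpar6 and 1 in S1pr4. The median was 21 over 10508 detected genes and 5 over 9261 genes not detected. At least as many CG as in S1pr3 were held by 22.6% of all windows, as many as in S1pr5 by 11.5%, and as many as in S1pr4 by 94.5%. The order by CG was not the order by level, since S1pr5 had the most CG of the 8 and was not detected. The windows of the highest S1P receptor gene and of the 2 lowest are printed 5′ to 3′ on the gene's strand, with each CG in capitals. They are at chr17:13945964-13946263 (minus strand) for S1pr3, chr8:28067820-28068119 (minus strand) for S1pr5 and chr7:8858278-8858577 (plus strand) for S1pr4.
S1pr3: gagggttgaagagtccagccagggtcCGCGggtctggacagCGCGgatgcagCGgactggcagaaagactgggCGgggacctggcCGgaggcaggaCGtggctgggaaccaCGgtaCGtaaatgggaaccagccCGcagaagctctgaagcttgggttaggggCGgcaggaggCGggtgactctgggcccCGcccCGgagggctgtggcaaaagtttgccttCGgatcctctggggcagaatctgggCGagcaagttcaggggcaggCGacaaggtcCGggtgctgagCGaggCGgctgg
S1pr5: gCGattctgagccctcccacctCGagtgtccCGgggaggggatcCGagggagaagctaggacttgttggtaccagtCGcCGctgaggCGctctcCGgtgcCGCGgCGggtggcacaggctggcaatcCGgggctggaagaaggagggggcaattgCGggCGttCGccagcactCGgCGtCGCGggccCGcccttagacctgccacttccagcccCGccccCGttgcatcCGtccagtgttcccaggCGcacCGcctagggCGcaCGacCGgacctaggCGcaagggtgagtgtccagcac
S1pr4: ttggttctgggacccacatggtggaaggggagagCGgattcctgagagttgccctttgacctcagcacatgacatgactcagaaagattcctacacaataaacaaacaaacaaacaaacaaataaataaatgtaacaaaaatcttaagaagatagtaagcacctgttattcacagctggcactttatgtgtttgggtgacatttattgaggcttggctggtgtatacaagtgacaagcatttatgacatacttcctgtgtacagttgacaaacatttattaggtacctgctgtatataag

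Of 9 genes listed for LPA formation, 6 were detected. The list is broad, and whether Gde1, Pld1 or its other genes form LPA in these cultures was not tested. Against the typical detected gene, 2 of the 7 fitted lay higher and 5 lower by the limma test, beside 34.3% and 62.5% of all genes fitted, so these counts are near that background. The same percentages, and the 41.3% of all genes that were detected, stand beside the counts of the lists that follow. The highest were Gde1, a phosphodiesterase, at 187 ± 4.66, the phospholipase gene Pld1 at 27.8 ± 0.831 and the lipid kinase gene Agk at 15.5 ± 0.875 TPM. Enpp2, which encodes autotaxin and is named here outside the rule for naming genes, was at 3.64 ± 0.398 TPM. Liph, Gdpd3 and Lipi were not detected, at 0.453 ± 0.112, 0.0891 ± 0.113 and 0 TPM.

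Genes that supply sphingosine and S1P were detected for 5 of 7, with 4 higher and 3 lower than the typical gene. The ceramidase gene Asah1 was at 138 ± 3.71 TPM, and the sphingosine kinase genes Sphk1 and Sphk2 at 44.5 ± 4.52 and 43.9 ± 1.14 TPM. Acer1 and Acer2, further ceramidase genes, were not detected by the rule (0.407 ± 0.128 and 0.755 ± 0.180 TPM), although Acer2 reached 1.04 TPM in replicate 2. On the breakdown list 9 of 11 genes were detected, with 4 higher and 7 lower. The list includes Plppr1 to Plppr5, named as relatives of the lipid phosphate phosphatases, and their part in breakdown was not tested. All Plppr genes lay lower, while the 4 higher genes were Sgpl1, Plpp1, Plpp2 and Plpp3. Plpp1, a lipid phosphate phosphatase gene, was at 249 ± 21.1 TPM, the S1P lyase gene Sgpl1 at 75.3 ± 3.62 TPM and Plpp3 at 38.1 ± 1.21 TPM, with Plppr4 and Plppr5 undetected at 0.359 ± 0.0532 and 0.424 ± 0.179 TPM. Of 8 export and carrier genes 6 were detected and of the 6 fitted 3 lay higher and 3 lower. They were led by the lipid transporter gene Abca1 at 122 ± 4.64, the carrier gene Gsn at 78.3 ± 3.71 and the transporter gene Abcc1 at 23.1 ± 0.804 TPM, and Mfsd2b and Alb were undetected at 0.0592 ± 0.0486 and 0.0333 ± 0.0358 TPM. The 3 lower genes were Apom, Spns2 and Abcg2, at 2.49 ± 0.278, 1.86 ± 0.416 and 1.36 ± 0.443 TPM. Whether any gene of this list moved S1P or LPA in these cultures was not tested.

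G protein genes and receptor regulators were detected almost throughout. All 11 G protein alpha subunit genes were detected and lay higher than the typical gene (beside 41.3% of all genes detected and 34.3% of genes fitted higher), with Gnas at 1146 ± 24.0, Gnai2 at 472 ± 7.55 and Gnai3 at 137 ± 1.64 TPM. Of 8 receptor regulators 7 were detected and of the 7 fitted 5 lay higher and 2 lower. Rtn4, which encodes Nogo, a protein that also acts on S1pr2, was at 400.5 ± 11.6 TPM, the arrestin gene Arrb1 at 125 ± 2.48 and the receptor kinase gene Grk2 at 52.4 ± 2.25 TPM. Cd69, whose product removes S1pr1 from the surface of lymphocytes, was listed at 0 in every library.

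**Figure D5:**
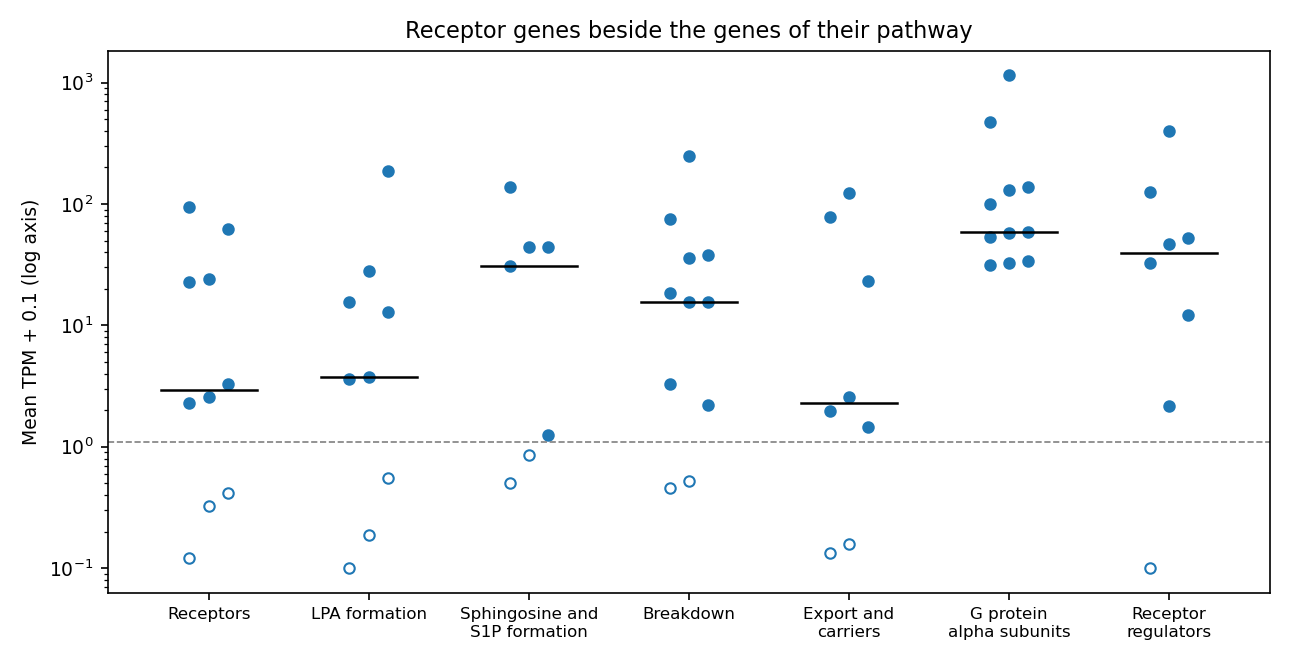
Mean TPM + 0.1 over 5 libraries on a log axis for the receptor genes and for the genes of 6 pathway lists; filled circles are detected genes, open circles are not, black bars are list medians and the dashed line marks 1 TPM. All G protein genes lie above the line, while every other list has open circles.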

How the data were processed

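Poly-A RNA from 5 samples of 1 group was sequenced. The submitters' processing notes list Salmon 1.5.1, cutadapt 2.8, Trim Galore 0.6.6 and build mRatBN7.2, with tool order, strand setting and the way of summing transcripts to genes not given in the sources used here. Gene levels were deposited as TPM. Per the file headers, each library's transcript file gives TPM, lengths and the estimated count of reads of its 98811 transcripts, as Salmon output. Rounding of these estimated counts to whole numbers preceded the count models.

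Results rest on the gene table unless transcripts or reads are named. A transcript was joined to its gene by RefSeq accession, ignoring its version, through a GRCr8 table that named 67314 of them (68.1%), which held between 81.4% and 81.7% of the reads of a library. Libraries differed in every pair by more than counting error, with a chi-square per gene of at least 5.15. The pseudocount was 0.1 TPM.

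Levels against the typical detected gene were tested with limma 3.58.1 (intercept only, empirical Bayes, Benjamini-Hochberg over all genes fitted, two-sided, threshold 0.05). Spread was estimated with edgeR 4.0.16 (TMM, filterByExpr). Both steps were first run on simulated data to check the code. In the limma part every simulated gene lay well above 1 TPM with the same spread, so it says nothing about calls of low genes. Alternatives covered thresholds, pseudocounts, filters, transcript sums, reads per 1000000 in the library, DESeq2 1.42.0 and leaving out each replicate. The text names the 10 receptor genes, their transcripts holding at least 10% of a gene's named TPM, genes overlapping them, the 3 highest and all undetected genes of each pathway list, and the highest of each marker list named; 1 pathway list and 1 marker list are not reported here. Other genes were named after their values were seen. The receptor genes, lists and tests were chosen with earlier results of these data known. The interval and floors given cover counting error only: with no molecular identifiers, reads are not independent molecules. Coordinates are given only for the printed RefSeq promoter windows, in GRCr8, which is not the build of the files.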

Additional observations from a re-analysis of the deposited data

Results flagged for a closer look

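A single library stood apart for 3 of the 10 receptor genes. The gap between it and its nearest neighbour, as a share of the range of all 5 libraries, exceeded Dixon's 95% critical value of 0.71; chance marks about 1 in 20 groups, and 5.58% of all detected genes were marked, a set that holds S1pr3 and Lpar6 but not S1pr4. For S1pr3 the ratio was 0.878, with replicate 1 low at 71.4 TPM and the others between 98.1 and 101.8 TPM. For Lpar6 it was 0.817, with replicate 5 high at 3.39 TPM and the others between 2.07 and 2.31 TPM. For S1pr4 it was 1, since replicate 2 had 3 reads (0.104 TPM) and the others 0; with 4 values at 0 the ratio is 1 for any other value above 0, so it says nothing beyond those 3 reads.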

How the results depend on the processing

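The count of 7 detected receptor genes was 7 at 0.5 TPM, 6 at 2 TPM, 7 with sums of named transcripts and 7 without each replicate. The counts of genes higher and lower than the typical gene were 4 and 5; without a replicate they ranged from 3 to 4 and stayed at 5. The lower count was 3 with a filter at a mean of 1 TPM, which left out S1pr5 and Lpar2, and 6 with no filter, which added S1pr4; over all genes it was 7125 and 25911 under these filters, beside 11871. The direction held for S1pr3 over Lpar1 and for the S1P over the LPA sum under all alternatives, with ranges of 0.55 to 0.71 and 0.38 to 0.49 without a replicate. Of 81 neighbour ratios under alternatives, 1 turned, Lpar6 over S1pr1 in reads per 1000000 (-0.44). The cause was not tested beyond that setting's use of length. The median coefficient of variation of all genes was 18.4% with no filter and 17.8% with DESeq2, both on 20222 genes, which include low genes, and between 7.73% and 8.42% without a replicate. No paired analysis was possible because the series has 1 group. Depth limits Lpar2, S1pr4 and S1pr5, which had 29, 3 and 42 reads in all over named transcripts.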

Other observations

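Lpar5, a further LPA receptor gene outside the 10 described, was in the table at 0.616, 0.456, 0.678, 0.557 and 0.639 TPM and was not detected.

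The 17 genes as low as S1pr3 in replicate 1 also included Col14a1, a collagen gene, at 48.03 TPM in replicate 1 against 74.1 to 95.4 TPM in the others. Il34, which encodes a growth factor of macrophages, was at 28.3 TPM against 42.2 to 48.8 TPM. Cdh1, the E-cadherin gene, was at 9.49 TPM against 13.3 to 14.3 TPM.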
